A study of Homo sapiens with 6 samples.

Results

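The 10 genes described here encode transcription factors and surface receptors of the neural crest: FOXD3, TFAP2A, TFAP2B, PAX3, SNAI2, ETS1, SOX10, EDNRB, ERBB3 and NGFR. They were chosen by name, with earlier results of these data known. Each had 1 probe set annotated to its symbol alone, so they are 10 of 18417 gene symbols tested through 19460 probe sets. The cells were human neural stem cells at passage 14, made from the embryonic stem cell line SA-01 and grown on polyornithine and laminin in N-2 and B-27 medium. They received the solvent DMSO at 0.1% (3 arrays) or X5050 at 100 µM (3 arrays), starting 5 h after plating and lasting 24 h, with 1 Affymetrix array per sample. The series title calls X5050 a REST inhibitor, REST being a repressor of neuronal genes. The design text names 3 independent cultures, which was read as each giving 1 DMSO and 1 X5050 sample, and the replicate number is called the culture below. All cells came from 1 line, so the cultures do not sample different embryos or donors.

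The neural crest is a population of cells that arises at the border of the neural plate, leaves the dorsal neural tube and forms peripheral neurons and glia, pigment cells and much of the facial skeleton. Border factors such as PAX3 and the AP-2 proteins act first, the specifiers FOXD3, SOX10, SNAI2 and ETS1 follow, and migrating cells carry receptors such as EDNRB, ERBB3 and NGFR. Several of these genes are not restricted to the crest: PAX3 marks dorsal neural tube progenitors, EDNRB is found in astroglial and neural progenitor cells, and SNAI2 and ETS1 are active in mesenchymal cells, ETS1 also in endothelium. In these bulk samples fewer cells of a type and less RNA per cell cannot be told apart.

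All values are log2 signals from the authors' RMA processing, and a change is X5050 minus DMSO. Signals of different probe sets are not on one scale, so levels are compared between arrays and not between genes. The array medians ran from 5.68 to 5.75 and any 2 arrays correlated at 0.984 to 0.993 over 33297 probe sets. All 15 neural stem cell markers measured were above the median of every array, with DMSO means from 5.90 ± 0.17 for GFAP, close to the array medians, to 12.07 ± 0.13 for FABP7 (SD, n = 3). None of the 10 genes passed an adjusted p under 0.05 in limma, either without a replicate block (smallest adjusted p = 0.479, FOXD3) or with it (0.0764, TFAP2B). The share of all tested probe sets that passed was 0% without the block and 0.498% with it. At an unadjusted p under 0.05 the counts were 2 of 10 genes without the block, against 9.37% of all probe sets, and 4 of 10 with it, against 14.5%. The median change over the 10 genes was 0.040, with 7 above 0 and 3 below, beside 0.0092 over all tested probe sets. In cultures 1, 2 and 3 the median over the genes was 0.14, 0.081 and 0.019.

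**Figure D1:**
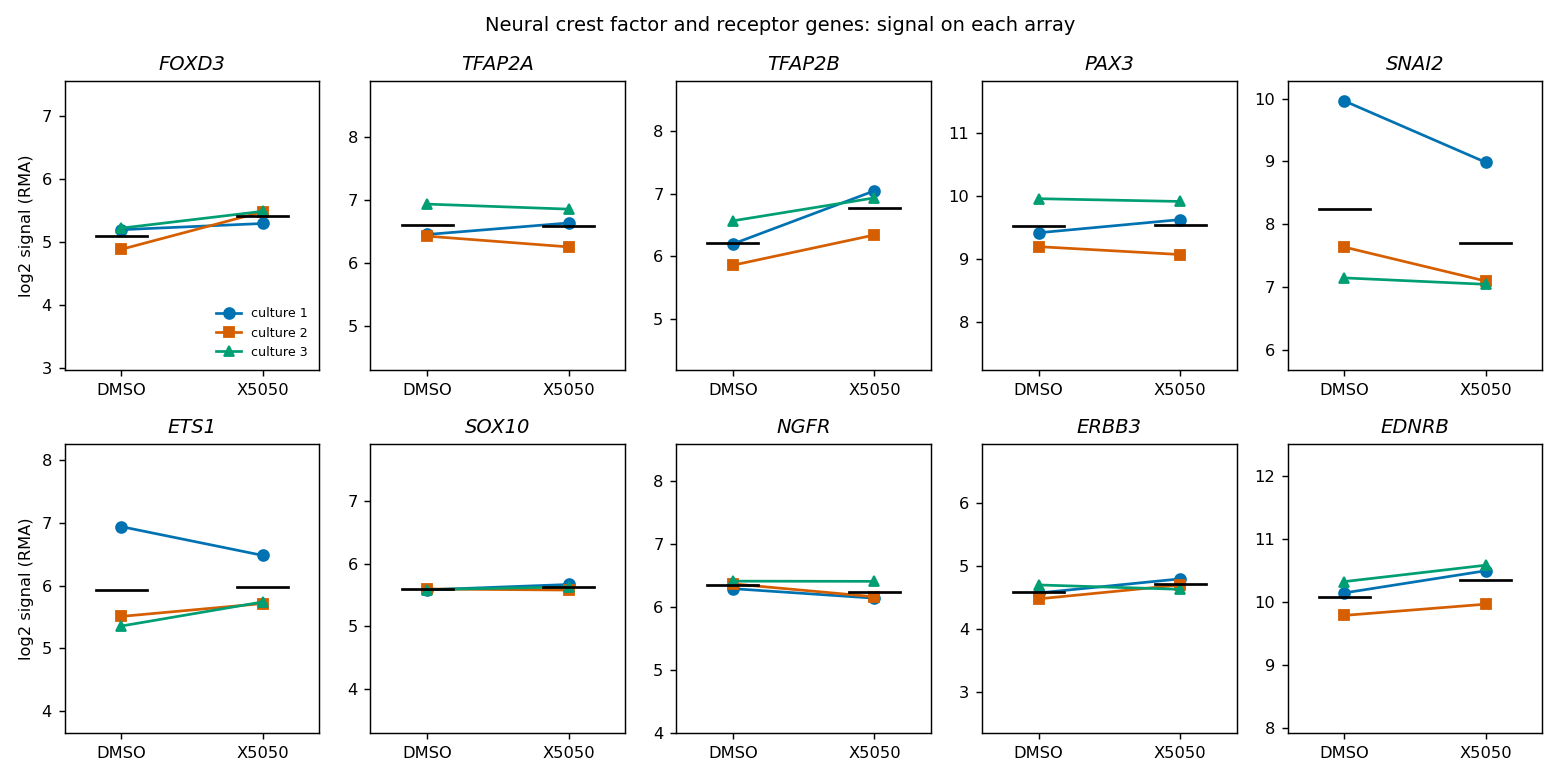
Log2 signal (vertical axis, of the same span in every panel) of each of the 10 genes with DMSO and X5050. Lines join the 2 samples of a culture (circles, culture 1; squares, culture 2; triangles, culture 3) and black bars are the means of 3 arrays; SNAI2 and ETS1 are highest in culture 1, while the SOX10 lines lie on top of each other.

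PAX3, a paired-box factor of the neural plate border and dorsal neural tube, varied with the culture, and no change with X5050 was called for it. Its signal was 9.41, 9.19 and 9.95 in DMSO cultures 1, 2 and 3 and 9.62, 9.07 and 9.91 with X5050. Culture 3 was highest and culture 2 lowest under both treatments, a spread of 1.70-fold with DMSO and 1.80-fold with X5050. The change with X5050 was 0.013 (SE 0.25, 95% interval -0.58 to 0.60, adjusted p = 0.994 in limma, n = 3 per treatment), and it was 0.21, -0.13 and -0.044 in the 3 cultures, so its sign was not settled. With the replicate block the interval narrowed to -0.21 to 0.24.

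TFAP2A, the AP-2 alpha factor needed for border and crest formation, followed the same order of cultures. It stood at 6.46, 6.43 and 6.94 with DMSO and at 6.64, 6.26 and 6.86 with X5050, again highest in culture 3 and lowest in culture 2. Its change was -0.023 (SE 0.19, paired 95% interval -0.25 to 0.21), with 1 culture higher and 2 lower.

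TFAP2B, the AP-2 beta factor of crest and sympathetic precursors, had the largest change of the 10 in either direction. The DMSO arrays gave 6.20, 5.86 and 6.57 and the X5050 arrays 7.04, 6.34 and 6.93. Every culture was higher with X5050, by 0.85, 0.48 and 0.36, but culture 2 with X5050 lay below culture 3 with DMSO, so the groups overlapped. The mean change of 0.56 (1.48-fold, SE 0.23, paired SE 0.11) did not pass, with adjusted p = 0.509 without the block and 0.0764 with it. Its paired 95% interval, not adjusted for the number of probe sets, was 0.31 to 0.82. With arrays or cultures left out the change ran from 0.39 to 0.78. The rest of the 16 alternative settings stayed within that range, and several of them cannot move the estimate.

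FOXD3, a forkhead factor that specifies the crest and maintains its progenitors, was the 1 gene of the 10 whose groups did not overlap. The signal was 5.20, 4.89 and 5.22 with DMSO and 5.30, 5.48 and 5.49 with X5050, all 6 values below the medians of their arrays. Over all tested probe sets 14.9% were separate in one direction or the other, so 1 of 10 is no more than that share. The change was 0.32 (1.25-fold, SE 0.12, 95% interval 0.049 to 0.59, adjusted p = 0.479; 0.230 with the replicate block). It was uneven, at 0.099, 0.60 and 0.27 in cultures 1, 2 and 3, and stood at 0.18 without culture 2.

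The regions just before the start sites of these genes are shown because PAX3, TFAP2A, TFAP2B and EDNRB shared a pattern across cultures and FOXD3 was the gene with separate groups. RefSeq (GRCh38.p14) windows of 250 bases before to 50 after a start were held for 5 of the 10 genes, 7 windows in all. The bases before the start are given below for PAX3 (minus strand, chr2:222298999-222299248), TFAP2B (plus strand, chr6:50818621-50818870), FOXD3 (plus strand, chr1:63322317-63322566) and the more downstream of 2 EDNRB windows (minus strand, chr13:77918832-77919081). Capitals mark a match to one of the motifs searched.
PAX3: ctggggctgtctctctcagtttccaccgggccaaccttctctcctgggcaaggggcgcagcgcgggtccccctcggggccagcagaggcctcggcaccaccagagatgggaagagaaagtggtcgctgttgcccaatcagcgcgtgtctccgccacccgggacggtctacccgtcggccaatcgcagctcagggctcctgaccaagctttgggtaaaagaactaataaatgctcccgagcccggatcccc
TFAP2B: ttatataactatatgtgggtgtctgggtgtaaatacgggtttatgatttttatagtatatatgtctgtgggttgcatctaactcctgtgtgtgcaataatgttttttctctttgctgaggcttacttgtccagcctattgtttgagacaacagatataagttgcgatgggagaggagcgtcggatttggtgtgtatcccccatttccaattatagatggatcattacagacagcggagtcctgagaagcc
FOXD3: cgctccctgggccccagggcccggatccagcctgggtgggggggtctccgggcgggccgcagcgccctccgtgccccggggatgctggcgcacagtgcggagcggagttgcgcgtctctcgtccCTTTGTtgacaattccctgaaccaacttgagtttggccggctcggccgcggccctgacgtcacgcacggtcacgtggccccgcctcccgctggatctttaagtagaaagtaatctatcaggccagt
EDNRB: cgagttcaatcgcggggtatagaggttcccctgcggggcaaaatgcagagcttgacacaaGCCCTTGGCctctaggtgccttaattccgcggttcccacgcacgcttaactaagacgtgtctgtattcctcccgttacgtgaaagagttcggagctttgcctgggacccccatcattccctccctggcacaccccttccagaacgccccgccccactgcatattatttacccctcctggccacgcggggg
The motifs were the AP-2 site GCCNNNGGC, the SOX sites ACAATG and ACAAAG, the E-box CACCTG bound by SNAI proteins, and the homeodomain palindrome of TAAT and ATTA spaced by 3 bases, each on both strands and in the whole 300-base window. The EDNRB window held 1 AP-2 match (GCCCTTGGC, 190 to 182 bases before the start), a motif found in 23.2% of all 35116 windows. FOXD3 held 1 SOX match, the reverse complement CTTTGT of ACAAAG (126 to 121 bases before the start), found in 16.1% of windows. The other 5 windows, both TFAP2A windows among them, held no match to any motif. ACAATG, the E-box and the palindrome occurred in 10.8%, 20.6% and 0.365% of all windows and in none of the 7. A match is a description of letters and not of binding.

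SNAI2, the zinc-finger repressor of E-cadherin that drives the exit of crest cells from the epithelium, varied more between cultures than any other of the 10 genes. It stood at 9.96 in culture 1 with DMSO, against 7.64 and 7.15 in cultures 2 and 3, and at 8.98, 7.10 and 7.04 with X5050. The spread between cultures was therefore 7.04-fold with DMSO and 3.84-fold with X5050. Its SD over the 6 arrays (1.22) was larger than that of 99.9% of tested probe sets. With X5050 SNAI2 was lower in each culture, by 0.98, 0.54 and 0.10 log2 units. The mean of -0.54 did not pass (1.45-fold, SE 0.78, adjusted p = 0.899; paired SE 0.15, paired adjusted p = 0.155). Without the DMSO array of culture 1 and without the block the change was 0.32, so its sign there rested on 1 array, while pairs without culture 1 gave -0.32.

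ETS1, a factor of delaminating cranial crest and of endothelium, was also highest in culture 1. Its signals were 6.94, 5.51 and 5.36 with DMSO and 6.48, 5.71 and 5.74 with X5050, a spread of 2.99-fold and 1.70-fold. It was lower with X5050 in culture 1 (-0.46) and higher in cultures 2 and 3 (0.20 and 0.38). The mean change was 0.043 (SE 0.41, paired 95% interval -0.31 to 0.39), and it was -0.25 without DMSO replicate 3 and 0.54 without DMSO replicate 1. Whether the change differs between cultures was not tested, since each culture has 1 array per treatment.

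The high SNAI2 and ETS1 signals in culture 1 stood beside markers of mesenchymal cells. Of the 17 mesenchymal genes measured, 16 were highest in culture 1 under both treatments, as were SNAI2 and ETS1 among the 10 genes (2 of 10) and 16.6% of all tested probe sets. The summed linear signal of the list was 10809, 3837 and 2768 in DMSO cultures 1, 2 and 3 and 7031, 2976 and 2727 with X5050. ACTA2, a contractile actin of smooth muscle and myofibroblasts, stood at 11.70, 10.39 and 9.27 with DMSO, and FN1, fibronectin, at 11.49, 9.88 and 9.20. ACTA2 and FN1 were the largest signals of the list in culture 1, and the sum there leaned on them. PRRX1, a mesenchymal homeobox factor, stood at 8.94, 7.31 and 7.62, and NT5E, the surface enzyme CD73, at 8.93, 6.22 and 5.87. Of 12 endothelial and blood genes 3 were highest in culture 1 under both treatments: the VEGF receptor KDR (7.44, 5.74 and 5.36 with DMSO), the adhesion molecule PECAM1 (5.22, 4.76 and 4.59) and the ETS-family factor FLI1 (5.01, 4.67 and 4.53). The summed linear signal of this list was 511, 328 and 342 with DMSO and 442, 359 and 357 with X5050. The sum in culture 1 leaned on KDR, the largest signal of the list there (7.44 with DMSO, 7.16 with X5050). It therefore does not describe the list as a whole. SDs over the DMSO arrays ran from 0.022 (TIE1) to 1.11 (KDR), with CD34 at 0.50, CDH5 at 0.052 and PTPRC at 0.090. The part of other cell types in the SNAI2 and ETS1 signals was not tested.

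SOX10, the factor that holds crest glial and pigment lineages, was nearly constant. The 6 signals were 5.58, 5.60, 5.59, 5.67, 5.58 and 5.63, below the median of every array. Only 0.730% of tested probe sets had a smaller SD over the 6 arrays (0.035). The change was 0.036 (SE 0.076, 95% interval -0.14 to 0.21, adjusted p = 0.933). The values carry no detection call, so whether this flat signal is above background is not known here.

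Among the receptors, EDNRB, the endothelin receptor of migrating melanoblasts and enteric precursors, showed both a culture pattern and a change of the same sign in every culture. Its signals were 10.15, 9.79 and 10.33 with DMSO and 10.50, 9.97 and 10.59 with X5050, highest in culture 3 and lowest in culture 2 under both treatments. It was higher with X5050 by 0.35, 0.18 and 0.26 in the 3 cultures, and the groups overlapped. The mean of 0.26 (1.20-fold, SE 0.20, paired SE 0.089) did not pass, with adjusted p = 0.771 and 0.218 with the replicate block. Its paired 95% interval was 0.060 to 0.47.

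ERBB3, the neuregulin receptor of Schwann cell precursors, was at 4.57, 4.47 and 4.70 with DMSO and 4.79, 4.70 and 4.63 with X5050, below the median of each array. The change was 0.13 (SE 0.094, 95% interval -0.093 to 0.34, adjusted p = 0.774), higher in 2 of 3 cultures. NGFR, the low-affinity neurotrophin receptor p75 used to sort crest cells, was at 6.29, 6.37 and 6.41 with DMSO and 6.14, 6.17 and 6.41 with X5050. It was lower by 0.15, 0.20 and 0.0033 in the cultures, a mean of -0.12 (SE 0.10, 95% interval -0.35 to 0.11, adjusted p = 0.804). Both receptors had groups that overlapped.

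**Figure D2:**
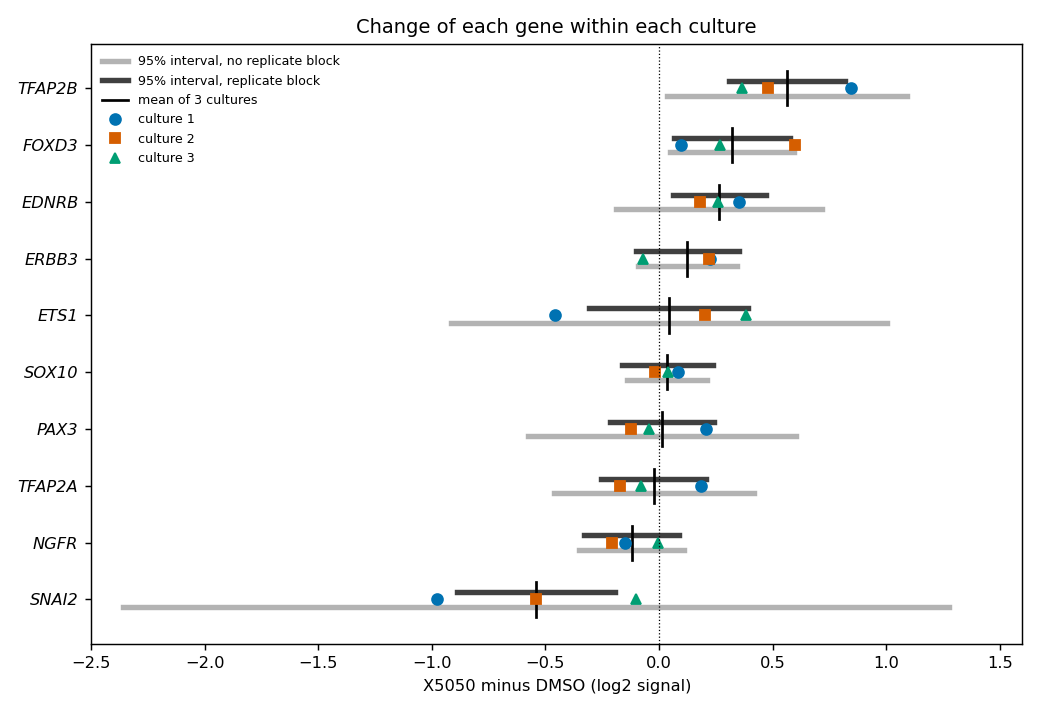
Change with X5050 (horizontal axis, log2 signal, X5050 minus DMSO) of each gene. Symbols are the 3 cultures, black ticks their mean, light bars the 95% interval without a replicate block and dark bars that with it; TFAP2B, FOXD3 and EDNRB lie above 0 and SNAI2 and NGFR below 0 in all 3 cultures, and the interval of SNAI2 without the block runs from -2.36 to 1.28.

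Counting signs, 3 of the 10 genes (TFAP2B, FOXD3 and EDNRB) were higher with X5050 in all 3 cultures, beside 18% of tested probe sets. Another 2 (SNAI2 and NGFR) were lower in all 3, beside 17.5%. These shares are a description and carry no test of the group of genes.

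The cultures themselves were compared by a limma F test of the culture term in the fit with the replicate block, a test chosen after the values were seen. It passed for 3 of the 10 genes, SNAI2 (adjusted p = 0.00153), ETS1 (0.0230) and PAX3 (0.0279), where 2.93% of tested probe sets (570 of 19460) passed. EDNRB (0.0527), TFAP2B (0.0767) and TFAP2A (0.108) did not, and the other 4 had adjusted p from 0.611 to 0.981. With a variance prior that follows intensity EDNRB passed too (adjusted p = 0.00999 in limma). Each culture has 2 arrays here, 1 per treatment, so the residual is the unevenness of the change between cultures. Without culture 1 the test passed for PAX3, TFAP2B, EDNRB and TFAP2A (adjusted p = 0.00491, 0.0185, 0.0326 and 0.0418 in limma), and SNAI2 (0.451) and ETS1 (0.895) did not pass. Without culture 2 or culture 3 it passed for SNAI2 and ETS1, and PAX3 did not pass (0.112 and 0.283). When all 33297 probe sets of the table were tested, named or not, 0 passed, and SNAI2 had an adjusted p of 0.0840.

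The 10 genes were sorted here by 2 culture patterns, with a remainder. SNAI2 and ETS1 (2 of 10) were highest in culture 1 under both treatments, as were 16.6% of tested probe sets. PAX3, TFAP2A, TFAP2B and EDNRB (4 of 10) were lowest in culture 2 under both, as were 14.7% of tested probe sets. FOXD3, SOX10, NGFR and ERBB3 followed neither. Another grouping cuts across these. PAX3, TFAP2A, EDNRB, FOXD3 and NGFR (5 of 10) were highest in culture 3 under both treatments, as were 3092 of 19460 tested probe sets. Of these, only PAX3 passed the F test of the culture term (adjusted p = 0.772 for FOXD3 and 0.611 for NGFR). The lead in FOXD3 was narrow: 5.22 against 5.20 in culture 1 with DMSO, and 5.49 against 5.48 in culture 2 with X5050.

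**Figure D3:**
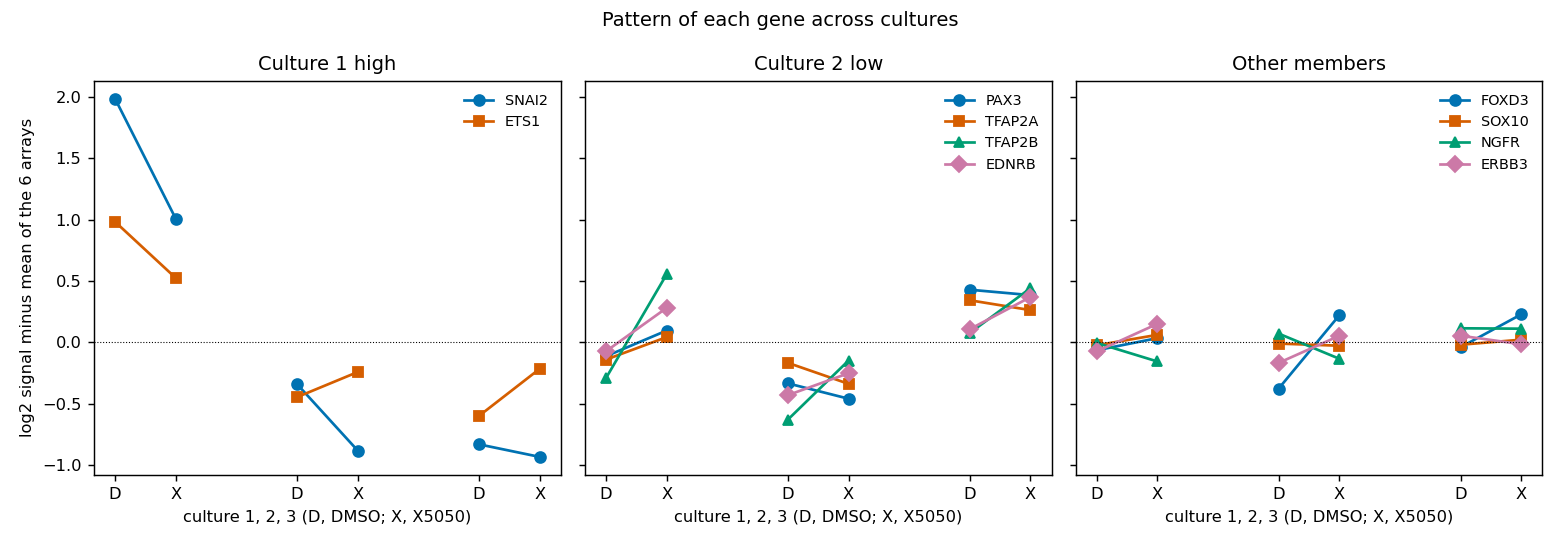
Log2 signal of each gene minus its mean over the 6 arrays (vertical axis), with the arrays ordered by culture and, within each, DMSO (D) before X5050 (X). SNAI2 and ETS1 stand above 0 in culture 1 only, and PAX3, TFAP2A, TFAP2B and EDNRB dip in culture 2.

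Splitting each gene's sum of squares over the 6 arrays, a description without a test, gave the share that went with culture and with treatment. Culture took 95.5% for PAX3, 91.5% for SNAI2, 90.1% for TFAP2A and 89.5% for ETS1, with at most 5.91% for treatment in these genes. EDNRB had 76.5% for culture and 21.9% for treatment. TFAP2B was divided nearly evenly, with 46.6% for culture and 47.2% for treatment. FOXD3 was the 1 gene with most of its variation under treatment (62.1%, against 12.2% for culture). The median share of culture was 66.0% over the 10 genes and 43.8% over all tested probe sets.

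**Figure D4:**
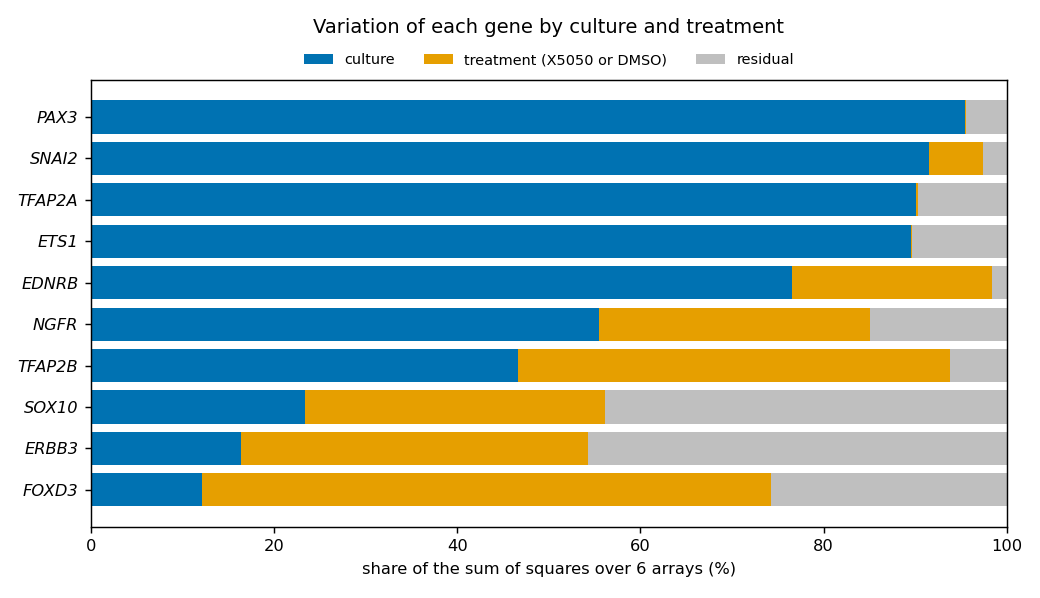
Share of each gene's sum of squares over the 6 arrays (horizontal axis, %) that went with culture, with treatment and with the residual. PAX3 is at the top with 95.5% for culture and FOXD3 at the bottom with 12.2%.

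Likeness of pattern was measured by the root mean square (RMS) difference between log2 signals centred on their own mean over the 6 arrays, which share 3 cultures. Among pairs of the 10 genes with an SD of at least 0.2, the closest were TFAP2A and PAX3 (0.11), TFAP2B and EDNRB (0.17), PAX3 and EDNRB (0.18) and TFAP2A and EDNRB (0.18). TFAP2A and TFAP2B, the 2 AP-2 paralogues, were farther apart (0.33). SNAI2 and ETS1 differed by 0.61, because SNAI2 moved by more. Outside the 10 genes, the 3 nearest symbols to PAX3 were CLU, the secreted chaperone clusterin (0.052), LOC100130331 (0.087) and SSTR2, a somatostatin receptor (0.11). For TFAP2A they were ESRRB (0.041), CCDC22 (0.058) and KLHL35 (0.058), and for TFAP2B ZNF474 (0.11), OLFM3 (0.12) and the coronin CORO2B (0.13). EDNRB lay nearest to CHRNA3, a nicotinic receptor subunit (0.077), PELI1 (0.079) and SIRT2 (0.080). SNAI2 lay nearest to LOX, the collagen cross-linking oxidase (0.20), the protease ADAM12 (0.22) and the matricellular protein CCN1 (0.24). ETS1 lay nearest to EDIL3 (0.080), the adhesion molecule ALCAM (0.091) and EMP1 (0.14), and FOXD3 to PRODHLP (0.051), HK3 (0.061) and OCEL1 (0.072). With 6 arrays and 19460 probe sets many patterns lie close together, so these names say nothing of shared control.

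Other genes of the crest programme gave no call by either fit. Of 15 further neural plate border factors 14 were measured (5 above 0 and 9 below, median -0.033), among them GLI3, the Hedgehog effector (-0.15), MSX2 (-0.29), PRDM1 (-0.21) and GBX2 (-0.0011). Of 25 further crest specifiers 22 were measured (15 above 0, 7 below, median 0.065), such as the chromatin remodeller CHD7 (0.18), the nuclear receptor NR2F1 (0.18) and SOX6 (0.26). Among ligands and partner receptors, 19 of 25 were measured (median 0.019): the GDNF co-receptor GFRA1 was at 0.40 (paired adjusted p = 0.0985 in limma), the neuregulin NRG3 at 0.32 (0.165), the p75 partner MAGED1 at -0.12 and the neurotrophin receptor NTRK2 at 0.017. Among migration and adhesion genes, 24 of 25 were measured (median -0.034): the guidance cue SEMA3A was at 0.72 (paired adjusted p = 0.0622), the Slit receptors ROBO2 at 0.49 (0.0912) and ROBO1 at 0.20, and N-cadherin CDH2 at -0.051.

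Several of these genes also differed between cultures by the F test. In the migration and adhesion list 6 of 24 passed, against 2.93% of all probe sets. In the same list 13 of 24 were highest in culture 1 under both treatments, beside 16.6% of all tested probe sets. The integrin subunit ITGA4 stood at 7.89, 6.20 and 5.36 in DMSO cultures 1, 2 and 3 (adjusted p = 0.00145) and the matrix protease MMP2 at 8.96, 7.66 and 7.87 (0.00187). Cadherin CDH7, another crest gene, ran the other way, at 6.62, 8.33 and 6.85 (0.00124). ITGA4 and MMP2, but not CDH7, were highest in culture 1 like most of the mesenchymal list given above. That list itself had 10 of 17 genes past this test. The neural stem cell list had 0 of 15, which at a share of 2.93% over all probe sets does not set it apart. The SD of its genes between cultures was at most 0.50 within a treatment. PROM1 of this list just missed the threshold (adjusted p = 0.0503 in the limma F test), at 10.1, 9.81 and 9.12 in DMSO cultures 1, 2 and 3.

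Markers of crest derivatives and of other cell types were read from the same fits. Melanocyte markers (11 of 12 measured, median 0.078) had 0 calls: the pigment cell master factor MITF was at 0.38 (paired adjusted p = 0.109), RAB38 at 0.017 and MLANA at 0.17. Most of their signals were below the median of every array: TYR, TYRP1, PMEL, MLANA, SLC45A2, GPR143 and TRPM1. Only RAB38 was above the median of every array. MITF was above that of each X5050 array, and OCA2 and MC1R lay close to the medians, on either side. Schwann and satellite glia markers (10 of 14 measured, median 0.080) had 1 call, the myelin lipid carrier PMP2, which rose by 0.91 in the paired fit (paired SE 0.12, paired adjusted p = 0.0350; 0.303 without the block). MAL was at -0.30, GAP43 at -0.078 and FABP7 at -0.084. Autonomic and sensory neuron markers (13 of 15, median -0.023) had 0 calls, with GATA3 at 0.25, PRPH at -0.15, NEUROG1 at -0.16 and NEUROG2 at -0.023.

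Neural stem cell markers (15 of 15, median -0.10) had 1 call, LIX1, which fell by 1.38 in the paired fit (paired adjusted p = 0.0177; 0.172 without the block), and NES was at -0.42 and VIM at 0.063. Mesenchymal markers (17 of 17, median -0.13) had 1 call, the matrix proteoglycan LUM, which fell by 1.09 in the paired fit (paired adjusted p = 0.0386; 0.629 without the block). TAGLN stood at -0.89, ACTA2 at -0.33 and FN1 at -0.22. Without culture 3, the threshold was missed in limma with the replicate block by PMP2 (adjusted p = 0.169), LIX1 (0.116) and LUM (0.0763). In that setting 0 of all tested probe sets passed, against 346 without culture 1 and 81 without culture 2. The miss is therefore not particular to these genes. Oligodendrocyte precursor markers (10 of 10, median 0.048; PTPRZ1 0.28, BCAS1 0.15, PCDH15 -0.087) and dorsal neural tube markers (14 of 15, median 0.035; BMP7 -0.38, WNT3 0.16) had 0 calls. Endothelial and blood markers (12 of 12, median -0.00029; PECAM1 -0.20, TEK 0.13, CLDN5 0.065, KDR -0.012) and pluripotent cell markers (7 of 10, median 0.0032; DPPA4 -0.32, DNMT3B -0.32, UTF1 -0.036) had 0 calls as well.

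**Figure D5:**
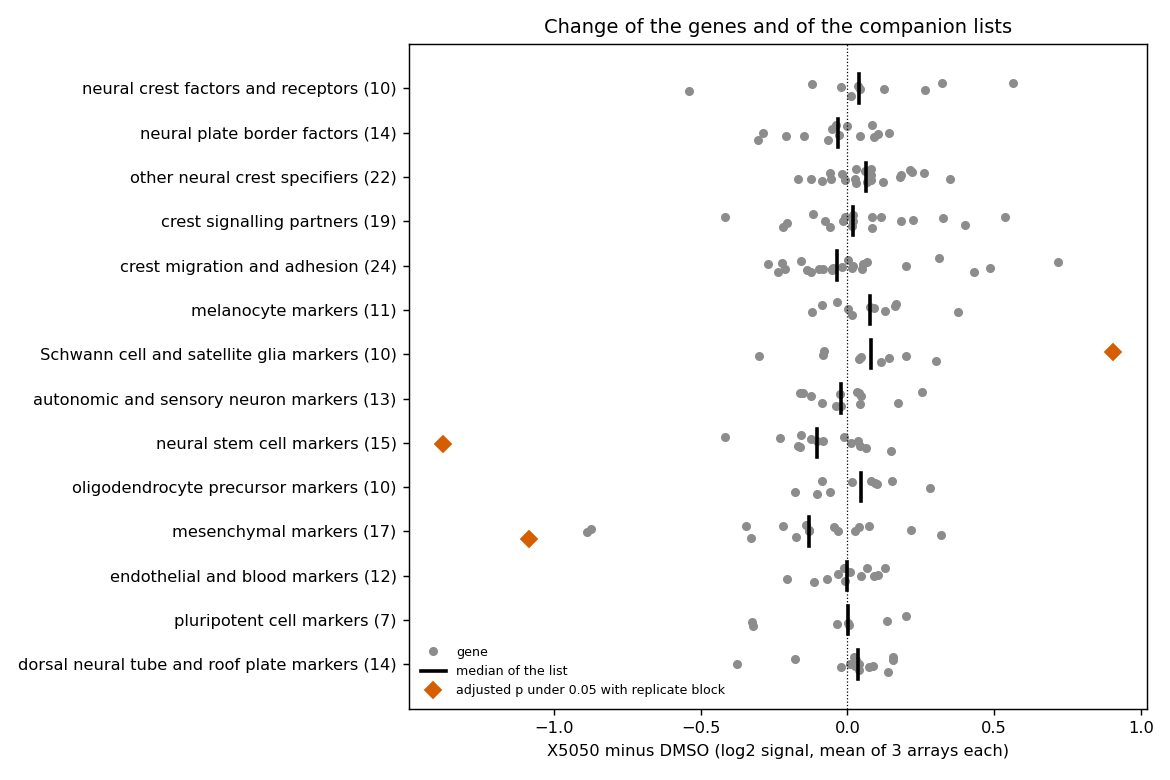
Change with X5050 (horizontal axis, log2 signal, means of 3 arrays) of each measured gene in the 10 neural crest factors and receptors and in 13 companion lists, with the number measured in brackets. Black bars are list medians and diamonds the 3 genes with an adjusted p under 0.05 in the paired fit (PMP2, LIX1 and LUM); none of the 10 genes is a diamond.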

How the data were processed

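The authors deposited 1 log2 signal for each probe set and array, made with RMA according to the submitters' processing notes, which also name Partek. RMA subtracts background and gives all arrays one distribution before probes are summarised, which compresses changes of dim probe sets. Not given in the sources used here: versions, settings, and which arrays went into the RMA run. The values carry no counts or detection measure, and the number of arrays limits the precision.

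Of 33297 probe sets, 19460 had 1 gene symbol in the platform annotation and were tested, 1754 had several and 12083 were not in it. The change with X5050 was tested two-sided with treatment as the single factor in limma 3.58.1 (R 4.3.3; lmFit, then eBayes), with Benjamini-Hochberg adjustment over 19460 probe sets. With 3 against 3 arrays an exact permutation test cannot go below 0.1. The replicate number as a block was the alternative fit, leaving 2 residual degrees of freedom against 4. Numbers were taken from the sample titles and pair the samples: after subtracting group means, arrays of one number correlated at 0.365, 0.297 and 0.255 and arrays of different numbers at -0.236 to -0.052.

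The 10 genes and the 13 companion lists were chosen with earlier results of these data known. A list is described by counts and medians, with no test of the list. From each list the 2 genes with the highest mean, the 2 with the smallest paired p and those past the threshold are named. Nearest patterns were limited to symbols with an SD of at least 0.2. GFAP, PROM1, PRRX1, NT5E, FLI1, TIE1, CD34, CDH5 and PTPRC were added with their values known. So were TYR, TYRP1, TRPM1, PMEL, SLC45A2, GPR143, OCA2, MC1R, ITGA4, MMP2 and CDH7. On simulated data the fits were tested first. Plots used Python 3.11.15 and matplotlib 3.10.9.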

Additional observations from a re-analysis of the deposited data

How the results depend on the processing

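In limma 0 of the 10 genes passed under any of the 16 alternatives, which included the replicate block, other scalings, other filters and each array or culture left out. Over all tested probe sets 97 passed with the replicate block, and with 1 array or 1 culture left out the count ran from 0 to 346. Companion genes past the threshold numbered 3 with the replicate block and from 0 to 6 with arrays or cultures left out. The median change of the 10 genes ran from -0.036 to 0.21 with arrays left out. Genes with a culture difference numbered 0 of the 10 when all probe sets were tested, a table in which no probe set passed, 4 with a variance prior that follows intensity (EDNRB added), and from 2 to 4 without 1 culture. Of the 10 genes, SNAI2 (-1.18 to 0.32), ETS1 (-0.25 to 0.54), TFAP2A (-0.16 to 0.14) and PAX3 (-0.18 to 0.25) changed sign with arrays left out, and PAX3 stood at -0.0057 with arrays centred on their medians. The other 6 kept their sign in all 16 alternatives. The replicate block, the filters of probe sets, the variance prior and averaging over a gene's probe sets cannot move the estimates of the 10 genes. Only the other scalings and the leaving out of arrays or cultures could change a sign. Companion genes that changed sign by scaling were NTRK2 (-0.0017) and RAB38 (-0.0022) after centring, and GBX2 (0.024) and CDH2 (0.0069) after quantile normalization. With arrays left out, those that crossed 0 were NTRK2 (-0.064 to 0.12), RAB38 (-0.17 to 0.20), GBX2 (-0.093 to 0.061), CDH2 (-0.097 to 0.011), GAP43 (-0.30 to 0.20), PCDH15 (-0.49 to 0.23), ACTA2 (-0.92 to 0.30), FN1 (-0.71 to 0.43), KDR (-0.51 to 0.62), CLDN5 (-0.061 to 0.14), NEUROG2 (-0.28 to 0.18), UTF1 (-0.17 to 0.11), MLANA (-0.013 to 0.32) and PRDM1 (-0.47 to 0.061). The causes were not tested.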

Other observations

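Relatives of the 10 genes were read after the other values were seen, as values only. Among AP-2 genes, TFAP2C stood at 6.41, 5.34 and 5.53 with DMSO in cultures 1, 2 and 3 and at 5.71, 5.04 and 5.61 with X5050, highest in culture 1 and lowest in culture 2 under both treatments. TFAP2D (3.44 ± 0.066 with DMSO, 3.35 ± 0.18 with X5050; SD, n = 3) and TFAP2E (6.67 ± 0.16 and 6.66 ± 0.080) were flatter. TFAP2A-AS1, annotated as antisense to TFAP2A, was at 5.08, 4.89 and 5.73 with DMSO and 5.08, 4.97 and 5.22 with X5050, in the same order of cultures as TFAP2A under both treatments.

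SNAI1, the other epithelial-mesenchymal factor of the SNAI family, did not show the culture 1 level of SNAI2: it stood at 4.62, 4.67 and 4.86 with DMSO and at 4.92, 4.72 and 4.87 with X5050. The SNAI1 signal was below the median of every array, and whether it is above background is not known here. ETS2, the closest relative of ETS1, was at 6.41, 6.53 and 6.60 with DMSO and 6.65, 6.80 and 6.63 with X5050. EGFR, of the family of ERBB3, was highest in culture 1 under both treatments (6.78, 6.18 and 6.08 with DMSO, 7.01, 6.67 and 6.28 with X5050; adjusted p of the limma culture term 0.0380). It was higher with X5050 by 0.23, 0.49 and 0.20 in the 3 cultures, and this change did not pass (paired adjusted p = 0.192). ERBB2 and ERBB4 had changes of -0.014 and 0.083.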
